A study of Mus musculus with 2 samples.

Results

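The genes described here are 10 leukocyte integrin subunits, read by 16 probes among the 26577 probes that could be given 1 gene symbol (20143 genes). They were chosen by name, as the probes on both arrays whose RefSeq accession belongs to Itgal, Itgam, Itgax, Itgb2, Itga4, Itga5, Itga6, Itgav, Itgb1 or Itgb7. The cells were bone marrow cells of C57BL/6 mice kept for 4 days with 5% fetal bovine serum and either 40 ng/ml GM-CSF plus 40 ng/ml IL-6 (GM-CSF + IL-6) or 40 ng/ml GM-CSF without IL-6 (GM-CSF ONLY). GM-CSF, which both cultures received, is a growth factor of granulocytes and macrophages, and IL-6 is an inflammatory cytokine that signals through STAT3. Total RNA of each culture went to 1 single-colour Agilent array, so there were 2 samples, 1 per condition, and neither the age nor the number of mice is given in the sources used here.

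Integrins are adhesion receptors made of an alpha and a beta chain. The beta2 family joins Itgb2 (CD18) to Itgal (CD11a, giving LFA-1), Itgam (CD11b, giving Mac-1) or Itgax (CD11c), holds leukocytes to ICAM molecules and complement fragments, and is restricted to leukocytes. Itgb1 (CD29) pairs with Itga4, Itga5 and Itga6, among others, to bind VCAM-1, fibronectin and laminin, and Itga4 also pairs with Itgb7. Itgav joins several beta chains to bind vitronectin and similar matrix proteins. Itgam is a surface marker by which myeloid-derived suppressor cells, immature myeloid cells that restrain T cells, are gated in mice.

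Promoter sequences are shown for Itgam and Itgax, the neighbouring genes of the surface markers CD11b and CD11c with only Gm45700 between them in the RefSeq table, and for Itga5, the subunit with the widest difference between the arrays. Each runs from 250 bases before to 50 bases after a gene start, 300 bases in all, taken from a table of RefSeq promoters on build GRCm38.p6, in which 7 of the 10 genes were matched. Itgam is at chr7:128062390-128062689 (plus strand), Itgax at chr7:128129300-128129599 (plus strand) and Itga5 at chr15:103366742-103367041 (minus strand). Capitals mark matches on either strand to GAGGAA, the core letters of sites bound by the myeloid factor PU.1, to TGANTCA, the letters of an AP-1 site, and to GGGCGG, the box bound by Sp factors.
Itgam promoter: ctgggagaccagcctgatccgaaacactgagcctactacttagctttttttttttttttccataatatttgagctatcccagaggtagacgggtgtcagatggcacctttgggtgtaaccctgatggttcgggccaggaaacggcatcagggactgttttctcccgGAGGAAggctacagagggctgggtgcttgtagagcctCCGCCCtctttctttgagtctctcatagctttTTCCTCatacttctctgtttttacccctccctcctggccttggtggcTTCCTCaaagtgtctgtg
Itgax promoter: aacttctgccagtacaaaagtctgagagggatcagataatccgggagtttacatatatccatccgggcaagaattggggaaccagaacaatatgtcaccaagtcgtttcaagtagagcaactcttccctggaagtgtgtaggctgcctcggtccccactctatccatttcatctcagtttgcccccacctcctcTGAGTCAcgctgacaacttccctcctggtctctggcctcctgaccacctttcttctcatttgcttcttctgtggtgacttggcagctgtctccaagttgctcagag
Itga5 promoter: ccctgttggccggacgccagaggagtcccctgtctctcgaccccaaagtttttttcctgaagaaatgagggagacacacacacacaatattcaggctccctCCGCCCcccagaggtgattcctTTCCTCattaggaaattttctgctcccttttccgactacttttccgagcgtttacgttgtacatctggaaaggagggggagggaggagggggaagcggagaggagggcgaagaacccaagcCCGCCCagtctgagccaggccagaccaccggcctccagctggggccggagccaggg
The Itgam sequence held GAGGAA or its complement 3 times and GGGCGG 1 time. The Itgax sequence held TGANTCA 1 time, and the Itga5 sequence held GAGGAA 1 time and GGGCGG 2 times. No marked letters overlapped. Over the 7 integrin promoters, 5 held GAGGAA, 5 GGGCGG and 1 TGANTCA, and among all 32851 promoters of that length the shares were 28.3%, 35.7% and 7.81%. TTCNNNGAA, the letters of a STAT site, was in 0 of the 7 and in 8.3% of all. A match describes letters and not a bound site.

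Both arrays had 62976 spots, no saturated spot, and 57.9% (GM-CSF + IL-6) and 59.1% (GM-CSF ONLY) of probes well above background. The signals below are the deposited processed intensities, each array scaled to its own 75th percentile, which was 486.2 with IL-6 and 549.7 without. Scaling matters here, because before it 14 of the 16 integrin probes were dimmer on the GM-CSF + IL-6 array, whose 75th percentile was 11.6% lower, and 2 were brighter, the Itga5 probe and the third Itgam probe. The error after ± is a technical SD on the log2 scale, taken from probes printed several times at a like signal. Every integrin probe was printed once, so n is 1 array and 1 spot per condition, and differences are given without p-values or any check by replicates. The spread over genes given beside a value is the SD of the log2 ratios of the 500 genes nearest in level. The labelled cell type was checked against myeloid genes. Itgam, S100a8, S100a9, Csf1r and Ccr2 were well above background on both arrays, and Ly6g and Ly6c2 were not analysed here.

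All 10 integrin genes, by all 16 probes, were well above background in both cultures, and 9 of the 10 genes differed by little between them. Their log2 ratios, GM-CSF + IL-6 minus GM-CSF ONLY, lay between -0.15 and 0.12 with a median of -0.06. The exception was Itga5, the alpha chain of the fibronectin receptor, which was 1.35-fold higher with IL-6 (log2 ratio 0.43 ± 0.07, 1 probe). Over the 10 genes, by the brightest probe, the median was -0.05, against -0.02 for all 13843 genes measured on both arrays. By the same probes 3 were higher and 7 lower, where 43.8% of all genes were higher. At least 1.2-fold apart was 1 of the 10 integrin genes, against 12.3% of all genes. Dim genes raise that share. Of the 10382 genes above the lowest 25% by level, 274 were at least 1.2-fold higher and 328 lower. All integrin genes but Itgav lay above that level. At 2-fold there were 0 of the 10, against 0.383% of all genes. In cultures measured in bulk, fewer cells with a transcript and less of it per cell cannot be told apart.

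**Figure D1:**
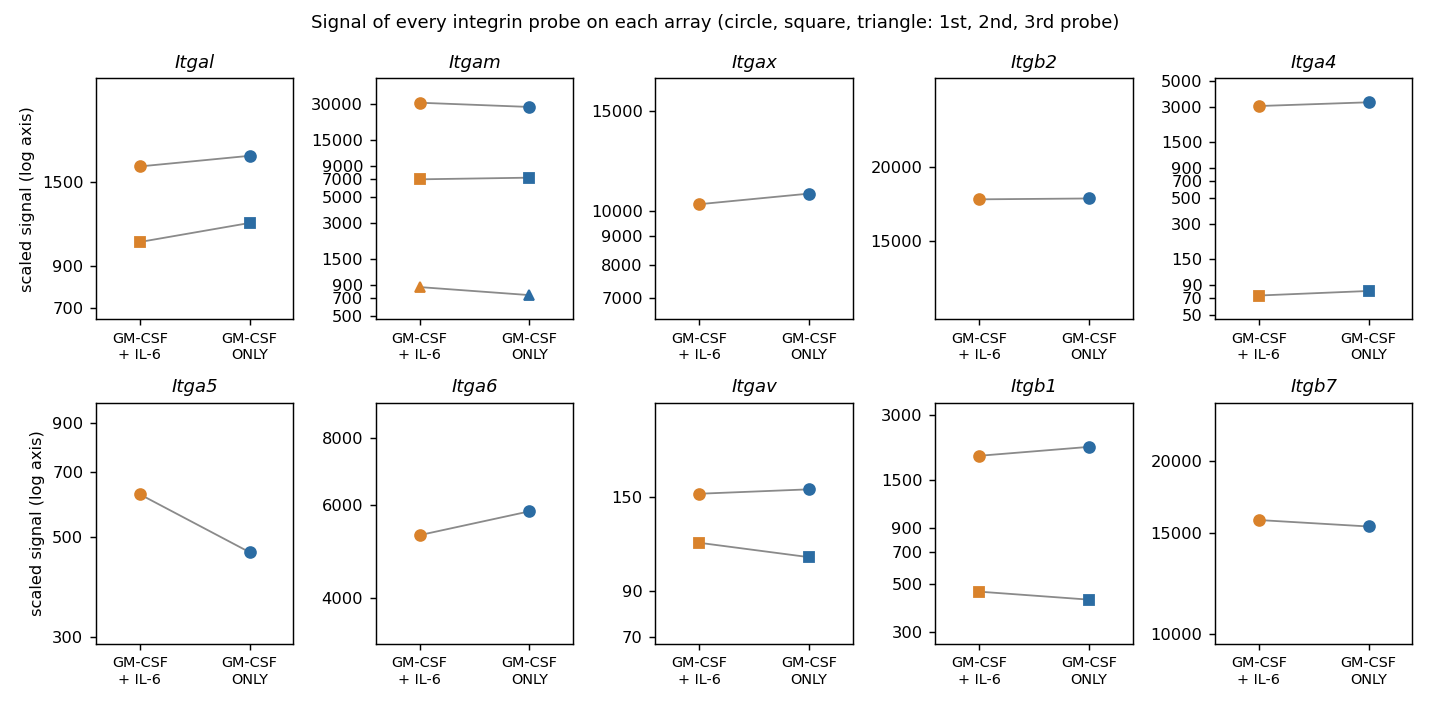
Scaled signal of every integrin probe (log axis, with its own range in each panel) on the GM-CSF + IL-6 array (left, orange) and the GM-CSF ONLY array (right, blue), 1 spot per point. The Itga5 line has the steepest slope, 623.7 with IL-6 against 463.2 without, and the lines of the other genes are close to level.

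The beta2 family was close to even between the cultures. Itgb2, the beta chain shared by the whole family, had a signal of 17633 with IL-6 against 17692 with GM-CSF only, a log2 ratio of -0.00 ± 0.04. Its sign depended on the scaling, from -0.02 to 0.02 over all settings tried. This difference is smaller than its technical SD and than the spread of 0.12 over genes of like level.

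Itgam, which makes the Mac-1 receptor for ICAM-1 and the complement fragment iC3b, had 3 probes. The first, A_55_P1977934, gave 30894 with IL-6 against 28465 without (log2 ratio 0.12 ± 0.04). The second, A_55_P1977929, gave 7011 against 7240 (-0.05 ± 0.04), and the third, A_55_P1977926, gave 871.1 against 745.7 (0.22 ± 0.07). The first and second carry the accession NM_001082960 and the third NM_008401, and the probe sequences were not used here. So 2 probes were higher and 1 was lower with IL-6, a range of 0.27, which 19.7% of the 3506 genes with several measured probes matched or exceeded. The first probe was at 0.04 with normexp background correction, less than its technical SD. The second probe lay in an area of the array where 40 other gene probes had a median of -0.09. It was at 0.04 relative to the median of its area, a setting chosen after seeing the data, and below 0 in the other settings run on it.

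Itgal, the alpha chain of LFA-1 that binds ICAM-1 and ICAM-2, was lower with IL-6 on both probes. The first gave 1650 with IL-6 against 1760 without (log2 ratio -0.09 ± 0.05) and the second 1043 against 1171 (-0.17 ± 0.07). The first was at -0.15 with normexp and at -0.04 relative to the median of its area. These probes differed from each other by 0.07, less than the median probe range of 0.13 over genes. The spread over genes of like level was 0.13 for both probes, and 153 of 500 such genes were lower than the first and 45 of 500 lower than the second. Itgax, the CD11c chain used as a marker of dendritic cells and tissue macrophages, gave 10261 with IL-6 against 10715 without (log2 ratio -0.06 ± 0.04, and -0.02 with normexp), and 61.2% of the 500 genes of like level were at least as far from 0.

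The alpha chains that pair with Itgb1 lay on both sides of 0, with Itga5 apart from the others. Itga5 had a signal of 623.7 with IL-6 against 463.2 with GM-CSF only, and unscaled 586.5 against 492.6, so its direction did not rest on the scaling. Its log2 ratio of 0.43 stood against a spread of 0.15 over genes of like level, of which 3 of 500 were higher. Among all genes, 301 (2.17%) were at least as high. The gene has 1 probe, A_52_P364140 (accession NM_010577), so no other probe bears on the value. Its spot lay in column 159 of 164, outside the crowded areas described under the processing, where 34 neighbouring gene probes had a median log2 ratio of -0.12, and relative to that median of its area it was 0.55 higher.

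Itgb1 itself, the partner of Itga5, did not share its direction on its first probe. That probe, A_66_P113059, gave 1952 with IL-6 against 2146 without (log2 ratio -0.14 ± 0.05), and the second, A_52_P351816, gave 458.9 against 421.4 (0.12 ± 0.07). The probes disagreed in sign by 0.26, a range that 21.1% of genes with several probes reach, so no direction can be given for Itgb1. The spread over genes of like level was 0.13 for the first and 0.15 for the second probe, close to the size of either value.

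Itga4 and Itga6 were lower with IL-6 by small amounts. Itga4, the chain of VLA-4 that binds VCAM-1 and fibronectin, gave 3076 with IL-6 against 3311 without (log2 ratio -0.11 ± 0.05), and its second probe 73.7 against 80.5 (-0.13 ± 0.25). Both probes pointed the same way and differed by 0.02, although the error of the second is larger than its difference. Itga6, which forms laminin receptors, gave 5255 with IL-6 against 5826 without, 1.11-fold lower (-0.15 ± 0.05, 1 probe). Of 500 genes of like level, 77 were lower still.

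Itgb7 and Itgav gave no clear difference. Itgb7, which pairs with Itga4 in the receptor for the gut addressin MAdCAM-1, gave 15795 with IL-6 against 15391 without (log2 ratio 0.04 ± 0.04), and its sign changed with background correction (-0.02 with normexp). Itgav gave 152.5 with IL-6 against 156.2 without on its first probe (-0.03 ± 0.11) and 116.8 against 108.0 on its second (0.11 ± 0.11), so its probes disagreed in sign within their errors. In all, 3 of the 5 genes with several probes, Itgam, Itgav and Itgb1, had probes on both sides of 0, and Itgal and Itga4 had probes on 1 side.

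**Figure D2:**
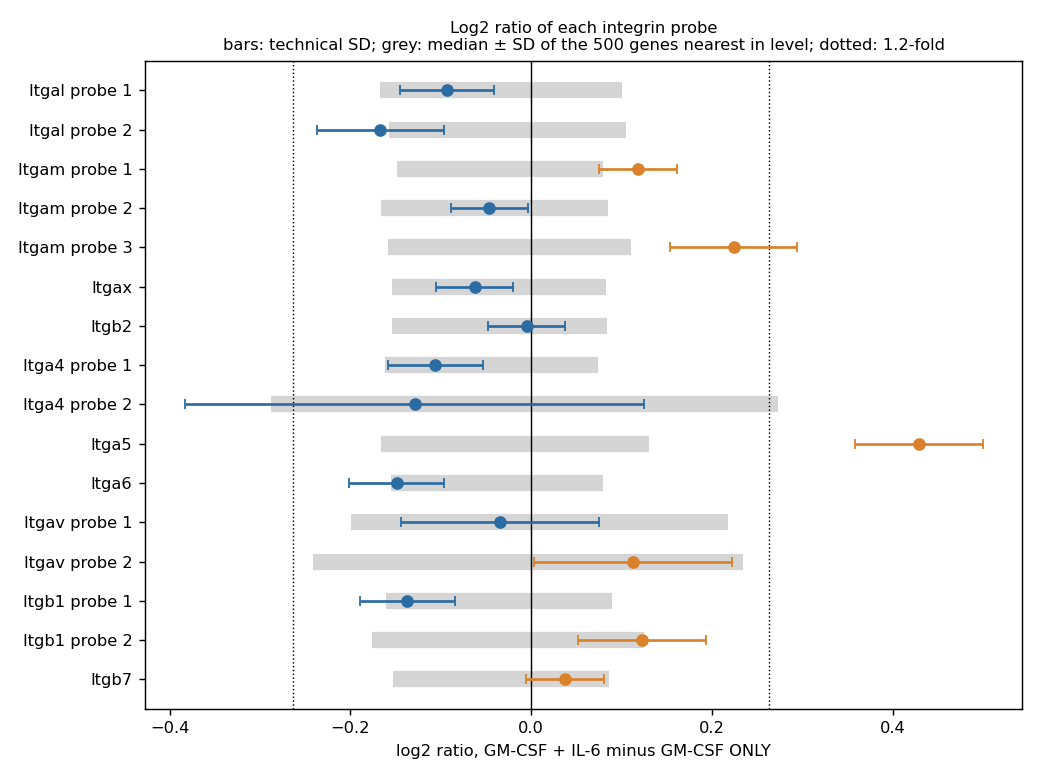
Log2 ratio (GM-CSF + IL-6 minus GM-CSF ONLY) of each of the 16 integrin probes with its technical SD, orange above 0 and blue below. Grey bars show the median ± SD of the 500 genes nearest in level and dotted lines 1.2-fold, and Itga5 at 0.43 is the only integrin probe past them.

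**Figure D3:**
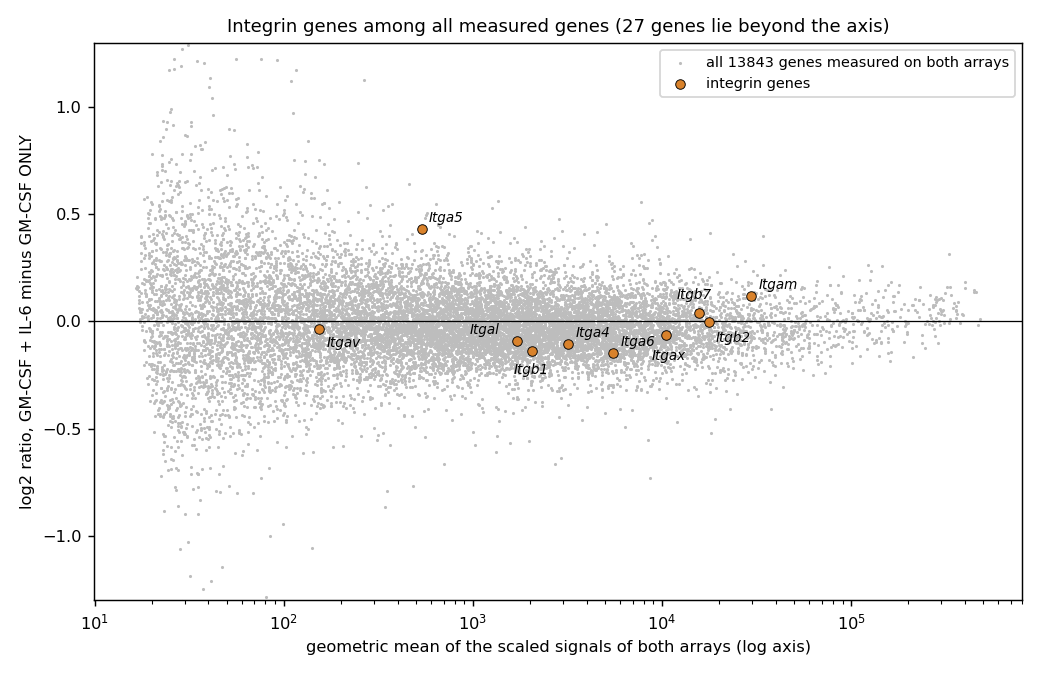
Log2 ratio (GM-CSF + IL-6 minus GM-CSF ONLY) against the mean scaled signal (log axis) for the 13843 genes measured on both arrays (grey), with 27 genes beyond the axis, and for the 10 integrin genes (orange, by their first probe). Itga5 lies at the upper edge of the genes of its level, and the other integrin genes lie inside the cloud.

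**Figure D4:**
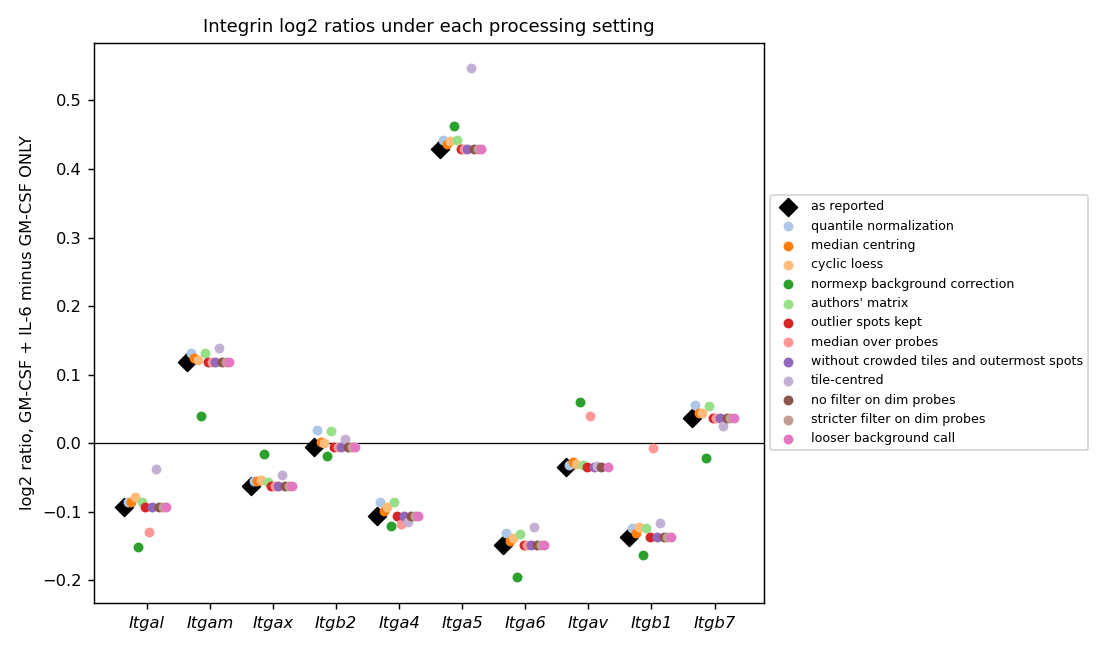
Log2 ratio (GM-CSF + IL-6 minus GM-CSF ONLY) of each integrin gene as reported (black diamonds) and under 12 other processing settings (coloured points). Itga5 ranges from 0.43 to 0.55, and Itgb2, Itgav and Itgb7 have points on both sides of 0.

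Genes that act with integrins were described in 6 lists, which differed in how many members passed 1.2-fold. Together, 80 of the 96 genes were measured, and 6 of them passed 1.2-fold upwards and 4 downwards with IL-6, together 12.5%. Of all genes 6.36% (881) passed it upwards and 5.97% (826) downwards, together 12.3%, and with normexp 596 did so upwards and 302 downwards. That share includes dim genes. Among the 10382 genes above the lowest 25% by level, 274 passed it upwards and 328 downwards. The share past 1.2-fold ran from 0% for the inhibitors and the membrane partners to 40% for the ligands. The lists were written with earlier results of these arrays known.

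Among the other integrin subunits, 7 of 14 on the array were measured, with 1 higher at 1.2-fold and 0 lower and a median of 0.07. Itga2b, the platelet alphaIIb chain, had a log2 ratio of 0.12 ± 0.11, Itga1, a collagen receptor chain, -0.15 ± 0.07 (0.07 on its other probe) and Itgb5 -0.09 ± 0.05. Itgb3, the beta chain of the platelet and vitronectin receptors, had -0.07 ± 0.05 and 0.31 on its other probe. The 1 higher gene was Itgb4, named after its value was seen, at a dim 71.0 against 56.1 (0.34 ± 0.25) in a crowded area of the array. The list median was the value of Itga7, at a dim 34.9 against 33.2 (0.07 ± 0.25). Itga7, Itgad (0.14 ± 0.25) and Itgb4 were all in the lowest 25% by level, so the sign of the median rested on dim genes. Itga7 and Itgad were also named after their values were seen. Itga2, Itga3, Itga8, Itga9, Itga11, Itgb6 and Itgb8 were not well above background on both arrays.

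The integrin activators and adaptors differed by small amounts, with 1 of 22 at least 1.2-fold higher, 0 lower and a median of -0.01. Tln1, which encodes talin and binds beta tails, had 49915 with IL-6 against 50616 without (log2 ratio -0.02 ± 0.04, and -0.15 on its other probe), Fermt3, the kindlin of blood cells, -0.08 ± 0.05, Rap1b, the small GTPase upstream of talin, -0.11 ± 0.04 and Apbb1ip, which links RAP1 to talin, -0.04 ± 0.04. The highest was Parvg, a parvin of the complex that ties integrins to actin, at 10639 against 8706 (0.29 ± 0.04), followed by the actin cross-linker Actn1 (0.25 ± 0.05). The lowest were the adaptor Fyb (-0.25 ± 0.05, and -0.26 on its other probe) and Lims1 (-0.16 ± 0.05). The 7 genes that restrain integrins had 0 past 1.2-fold and a median of -0.02, among them Rasa3, which inactivates RAP1, at -0.21 ± 0.04, Dab2 at -0.16 ± 0.07, Itgb1bp1 at 0.02, with -0.13 on its other probe, and Rap1gap at 0.01.

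Of 18 kinases and effectors below integrins, 2 passed 1.2-fold upwards and 0 downwards, and the median was -0.07. Both were dim, Ptk2, which encodes focal adhesion kinase, at 44.4 against 23.6 (log2 ratio 0.91 ± 0.25) and its partner Bcar1 at 57.4 against 47.6 (0.27 ± 0.25), and both were named after their values were seen. Ptk2b, the related kinase PYK2, had 6725 with IL-6 against 5776 without (0.22 ± 0.05, and 0.37 on its other probe). Rac2, the leukocyte Rac GTPase, had 0.11, with a spot in a crowded area, the Src family kinase gene Lyn -0.24 ± 0.07, Arhgap25 -0.17 ± 0.05 and Syk, which relays beta2 signals, -0.15 ± 0.04.

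Among the ligands, 15 of 20 were measured, 2 were at least 1.2-fold higher and 4 lower with IL-6, together 40% against 12.3% of all genes, and the median was -0.13. Of these 6, 3 were in the lowest 25% by level. Vcam1, the partner of the Itga4 receptor, had 1512 with IL-6 against 1945 without (log2 ratio -0.36 ± 0.05, and -0.11 on its other probe). Fn1, the fibronectin bound by Itga5 and Itga4, had 12257 against 15294 (-0.32 ± 0.04). This ligand was lower where Itga5 was higher, and Itga4 was lower with it (-0.11 ± 0.05, and -0.13 ± 0.25 on its other probe). A link between ligand and receptor levels was not tested. F11r, the LFA-1 ligand JAM-A, was at -0.28 ± 0.05 and Jam2 at -0.31 ± 0.11, at a dim signal, both named after their values were seen, as were the dim Icam4 (0.27 ± 0.11) and Madcam1 (0.27 ± 0.11, and 0.05 on its other probe), the 2 higher ones. Icam1 had -0.13 ± 0.11, Thy1 0.09 and the epithelial ligand Cdh1 0.15, with its spot in a crowded area. The 11 membrane partners had 0 past 1.2-fold and a median of -0.00, with the amino acid carrier chain Slc3a2 at 0.09, Cd37 at 0.08, Cd82 at -0.12 (up to 0.25 over its 3 probes) and Cd9 at -0.13.

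**Figure D5:**
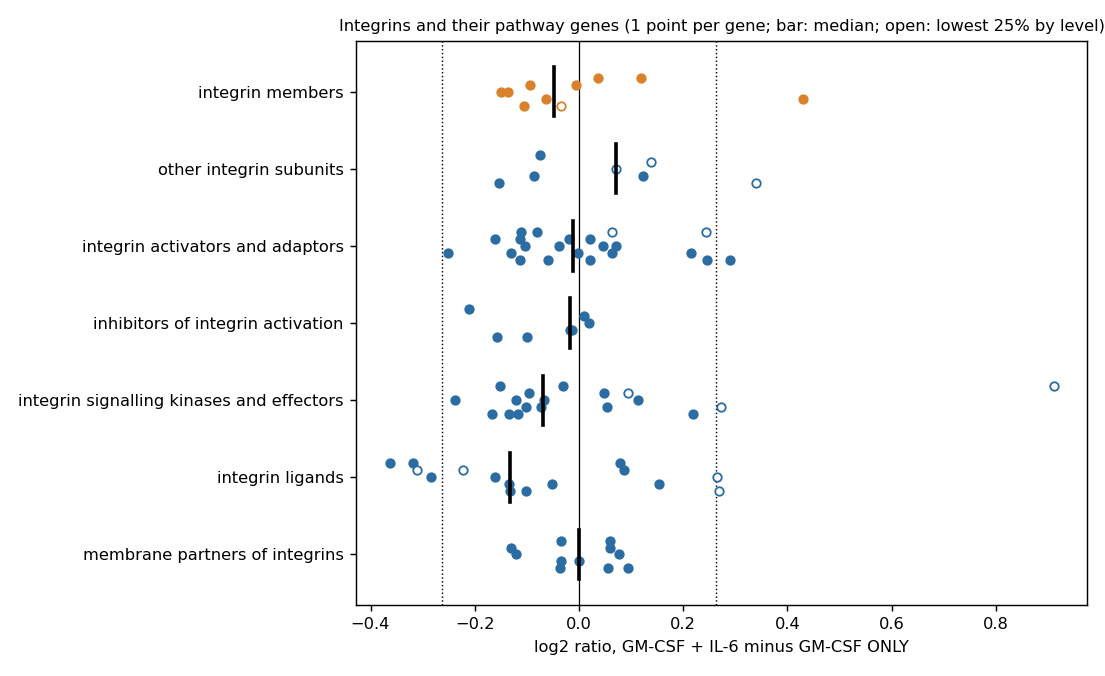
Log2 ratio (GM-CSF + IL-6 minus GM-CSF ONLY) of the integrin genes (orange) and of 6 lists of genes that act with them (blue), 1 point per gene, with the list median as a bar, 1.2-fold as dotted lines and genes in the lowest 25% by level as open points. The ligands have the lowest median at -0.13, and most points beyond 1.2-fold to the right are open.

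Cell type marker lists differed in how many genes were higher with IL-6, read here by each gene's brightest probe and beside the 43.8% of all genes. Higher were 5 of 12 neutrophil, 3 of 7 macrophage and 3 of 7 T and NK cell genes. So were 1 of 5 B cell and 2 of 5 eosinophil genes. Of the mast cell and basophil list 7 of 7 genes had the higher level with IL-6 (summed scaled signal 43290 against 37992), with Tpsb2 at 0.42 and -0.11 on its other probe. Most of the difference between these sums was Mcpt8 (24659 against 21473). Fcer1a was at 0.02 ± 0.07, less than its technical SD, and Mcpt4 was in the lowest 25% by level. Monocyte genes were lower in 7 of 8 (94760 against 108225). Most of that difference in sums was Csf1r (57302 against 68232), whose 3 probes ran from -0.25 to 0.26. Past 1.2-fold were 2 of the 8 monocyte genes, both lower (25%, against 12.3% of all genes in either direction). They were Cx3cr1 (167.9 against 251.4, a log2 ratio of -0.58 ± 0.11, and -0.58 on its other probe) and Ms4a6c (1397 against 1878, -0.43 ± 0.05, 1 probe). Megakaryocyte and platelet genes were lower in 5 of 6 (34130 against 37342), mostly through Pf4 (30226 against 32922). Dendritic cell genes were lower in 6 of 6 (138865 against 147966). Most of that sum was Siglech (114307 against 118464, a log2 ratio of -0.05, and 0.03 on its other probe) and Ccr7 (23982 against 28859). Zbtb46, Cd209a and Clec9a were in the lowest 25% by level. Of the stromal list 4 of 6 genes were measured and 3 were higher (723.8 against 619.0). Col1a1, Col1a2 and Sparc were in the lowest 25% by level, and Pecam1, which leukocytes and platelets also express, made up most of the sum (478.2 against 454.7). Most of the difference between the stromal sums was the dim Sparc (100.4 against 36.0, a log2 ratio of 1.48 ± 0.25, 1 probe). In the stromal list Cdh5 and Cxcl12, and in the dendritic cell list Xcr1, were not well above background on both arrays. The part of these marker differences in the integrin values was not tested.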

How the data were processed

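The 2 samples were grouped by the treatment in the labels. Spot intensities were deposited as extracted with Agilent Feature Extraction 10.7.1.1 with spatial and multiplicative detrending, per the file headers, and were not scaled between arrays. The authors' matrix holds log2 values close to log2 of those intensities with equal column distributions, with software not given in the sources used here. Each value here is log2 of the processed signal minus the array's 75th percentile over non-control spots, with outlier spots left out. A probe was measured when at least 50% of its spots were well above background, and a gene took its brightest measured probe, with every integrin probe given too. Probes were named by RefSeq accession without version. For printing, both arrays' signals were brought to a common 75th percentile (their geometric mean). The technical SD came from 266 probes with at least 5 spots, in 6 bins of signal, and covers spot error only. The calculation was tested on simulated data.

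A single array per condition allows no test and limits the precision. The folds used were 1.2 and 2. Areas of the array are tiles of 16 by 12 spots. A tile was crowded when at least 4 probes with no symbol in it were 2-fold apart, and 9 were. Other settings were normexp with an offset of 50, the authors' matrix, cyclic loess, median centring, quantile normalization, other filters and calls on dim probes, kept outliers, the median over probes, and leaving out crowded tiles and outermost spots. Centring on the tile median was chosen after seeing the data. Named were all members, and from each pathway list the 2 highest and 2 lowest genes outside the lowest 25% by level, with Tln1, Fermt3, Rap1b, Apbb1ip, Syk, Icam1, Vcam1 and Fn1. With 2 arrays no likeness of pattern can be ranked. The members and lists were chosen with earlier results of these data known. Marker lists given by counts only were neutrophil (5 of 12 higher), macrophage (3 of 7), T and NK cell (3 of 7), B cell (1 of 5), eosinophil (2 of 5) and erythroid genes (1 measured of 5, higher). Values were computed with pandas 2.3.3 and numpy 2.4.6 in Python 3.11.15, normexp, quantile and loess values with limma 3.58.1 (R 4.3.3), and plots with matplotlib 3.10.9.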

Additional observations from a re-analysis of the deposited data

How the results depend on the processing

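Itga5 was the 1 integrin gene at least 1.2-fold apart in all 12 other settings, between 0.43 and 0.55, and its sign did not change. Not all settings could move it. Keeping outlier spots, leaving out crowded tiles and outermost spots, and other filters and calls on dim probes left every integrin value as it was. Those settings bear only on which genes are counted. The median over probes could not move Itga5, which has 1 probe. Of 119 recomputed integrin log2 ratios, those that could not move included, 112 moved by less than the technical SD and 7 by more. The 7 were Itgal (-0.15), Itgam (0.04), Itgax (-0.02) and Itgb7 (-0.02) with normexp, Itgal (-0.04) and Itga5 (0.55) with tile centring, and Itgb1 (-0.01) with the median over probes. Signs of Itgb2, Itgav and Itgb7, near 0, changed in some settings, and 3 or 4 integrin genes were above 0. The integrin median was -0.00599 with the median over probes, midway between Itgb1 (-0.00711) and Itgb2 (-0.00486). After normexp it was -0.0202, midway between Itgb7 (-0.0216) and Itgb2 (-0.0189). Why normexp moved single genes was not tested. Counts over all genes depended on dim probes. Normexp gave 3 genes 2-fold higher and 0 lower, and past 1.2-fold it gave 596 upwards and 302 downwards (881 and 826 as reported), where tile centring gave 982 and 670. Without a filter 510 were 2-fold higher and 341 lower, and 2145 and 1978 past 1.2-fold. The stricter filter gave 1 and 0, and 274 and 328, with Itgav left out. The looser call gave 254 and 164, and 1589 and 1536. Without crowded tiles and outermost spots 6 were 2-fold lower. No paired analysis was possible because there was a single pair of arrays.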
